A study of Mus musculus with 6 samples.

Results

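The nuclear genes for subunits of the mitochondrial respiratory chain and ATP synthase were examined in whole spleens of garlic-fed and control mice. Genes were taken by symbol, as those whose name begins with Nduf (followed by a, b, c, s or v and a digit), Sdh (a to d), Uqcr, Cox (4 to 8) or Atp5, from probe sets that the array annotation assigned to a single gene. The rule found 81 of 18193 genes named on the array, and each gene was represented by its probe set of highest mean log2 signal. Of these, 76 passed the filter on dim probe sets, namely 34 of 35 for complex I, 4 of 4 for complex II, 8 of 8 for complex III, 13 of 17 for complex IV and 17 of 17 for complex V. The rule used no measured difference between the diets.

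By the sample labels, all 6 animals were male C57BL/6J mice, 8 weeks old at the start, which ate the same casein, sucrose, cornstarch and soybean oil diet for 15 weeks. The 3 control mice received it with 4% cellulose, and the 3 garlic-fed mice with 4% powder of lyophilized raw garlic. RNA of each spleen was measured on 1 Affymetrix array, and a signal is the MAS5 intensity of a probe set, on a linear scale. The study's methods name the strain C57BL/6JNarl. The comparison asked which spleen mRNAs differed after the garlic diet. In RNA of a whole organ, fewer cells of a type and less RNA per cell cannot be told apart.

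The respiratory chain lies in the inner mitochondrial membrane. Complexes I and II pass electrons from NADH and succinate to ubiquinone, complex III passes them on to cytochrome c, and complex IV gives them to oxygen. Complexes I, III and IV pump protons, and complex V, the ATP synthase, uses the resulting gradient to make ATP. Most subunits are encoded in the nucleus and a few in mitochondrial DNA, and red cell precursors keep mitochondria for heme synthesis and lose them as they mature. The mitochondrially encoded subunits had no named probe set here and were not analysed here, nor were Ndufa11 and Ndufs6, whose probe sets were annotated to several genes.

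Subunit mRNAs in garlic-fed spleens lay close to those of control spleens. The median log2 difference, garlic-fed minus control, was 0.03 over the 76 subunits, with single values from -0.35 for Cox8c to 0.69 for Cox6b2. It was -0.03 over all 12262 genes tested. No subunit was higher and none lower at an adjusted p under 0.05 in limma with Benjamini-Hochberg adjustment over all probe sets, against 0.343% of all genes called higher and 0.00816% called lower. At an unadjusted p under 0.05, 3 subunits (3.95%) were higher, Ndufv1, Ndufa2 and Cox6b2, and 0 were lower, against 6.89% and 6.24% of all genes. The one-way analysis of variance named in the study's methods called 0 subunits after the same adjustment, and 0 of all genes. Before adjustment it called 1 subunit higher and 0 lower (log2 signals, against 5.45% and 5.91% of all genes).

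Every garlic-fed spleen lay above every control spleen for 7 subunits (9.21%, against 9.13% of all genes), which were Ndufv1, Ndufa2, Ndufb2, Ndufb10, Uqcrfs1, Cox6b2 and Atp5k. Every garlic-fed spleen lay below every control spleen for 2 subunits (2.63%, against 10.7% of all genes), Atp5pb and Atp5g3. The estimate was positive for 49 subunits and negative for 27, a positive share of 64.5% against 44.2% of all genes. The median over all subunits ran from -0.0056 to 0.06 when 1 array was left out, turning without control mouse 1. The split moved with the scaling and with single arrays. It was 69 to 7 when each array was centred on its median, which also moved the median of all genes from -0.03 to 0.05. The subunit median exceeded that of all genes by 0.06 in the main setting. Centring shifts all genes of an array alike, so it could not change this excess. The excess was 0.04 with quantile normalization. With 1 array left out it ran from 0.03 (without control mouse 1) to 0.10 (without garlic-fed mouse 1). It was 0.01 without control mouse 1 and garlic-fed mouse 2. The split was 37 to 39 without control mouse 1, and 35 to 41 without control mouse 1 and garlic-fed mouse 2. These arrays were the most pancreatic of each group, and also most often the lowest control and the highest garlic-fed array for the subunits.

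**Figure D1:**
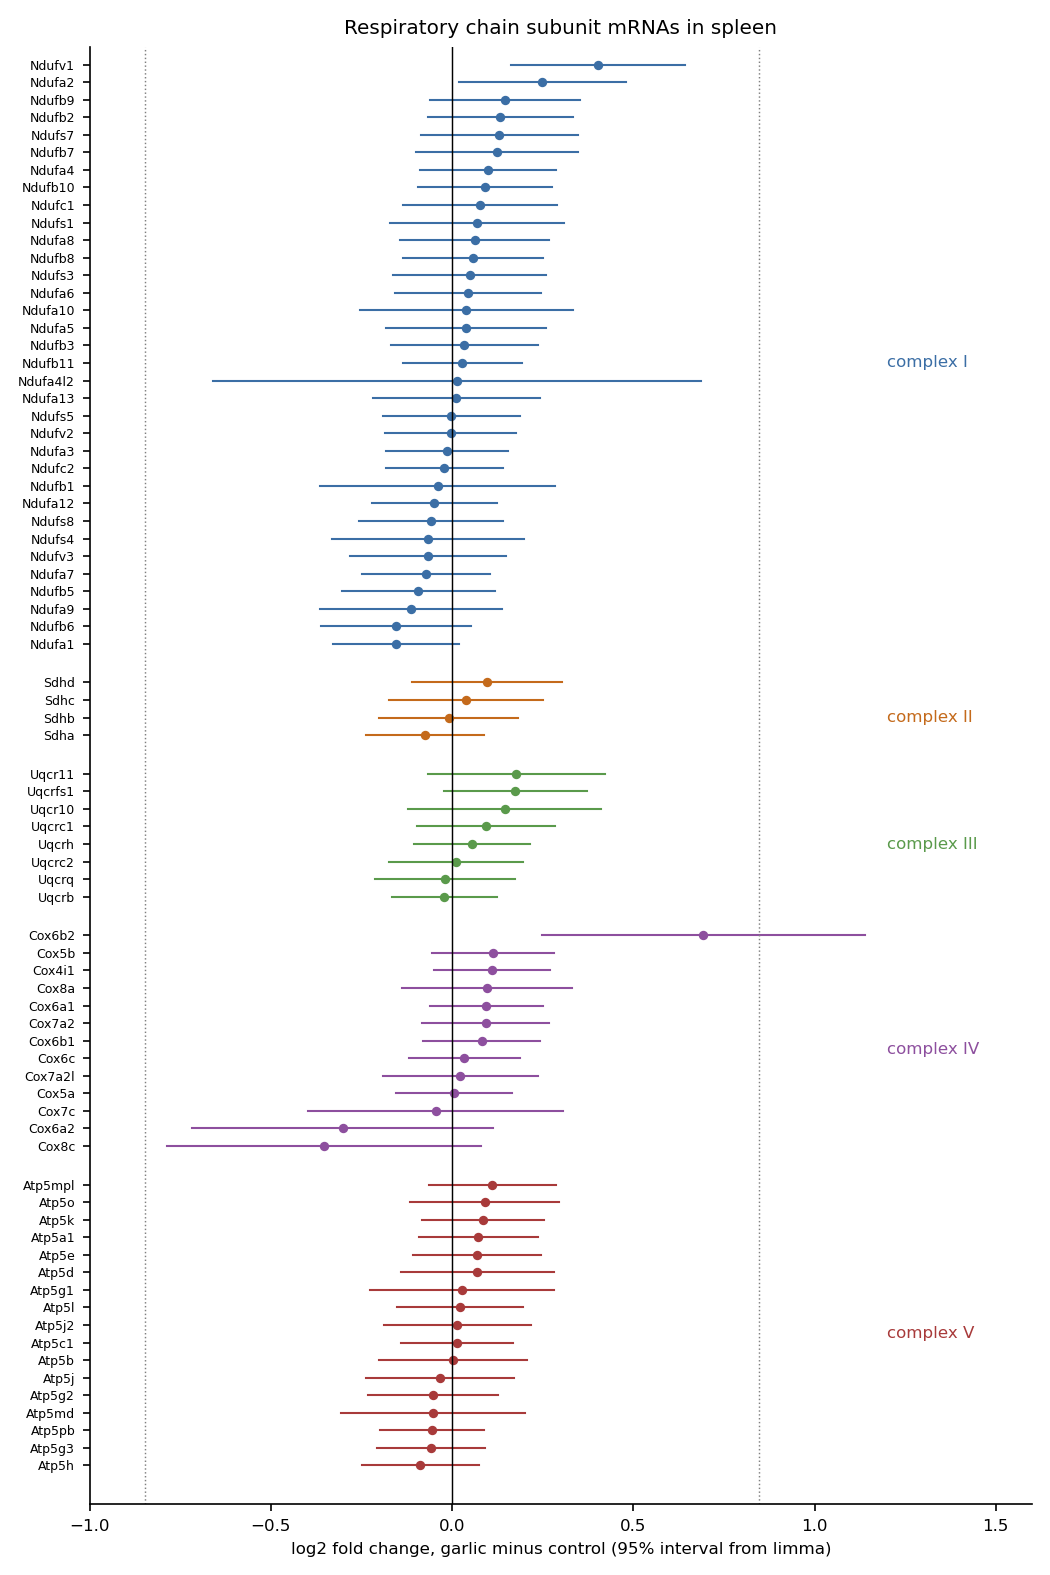
Log2 difference, garlic-fed minus control, for the 76 subunits tested (points) with 95% confidence intervals from limma (lines), ordered by size within complexes I to V, from 3 spleens per diet, with dotted lines at 1.8-fold. Most points lie near 0, and Cox6b2 (0.69) in complex IV and Ndufv1 (0.40) in complex I lie farthest from it.

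The size of change that these arrays leave room for was small for most subunits. The 95% confidence interval of the difference stayed within 1.2-fold in either direction for 38 of 76 subunits (50%, against 7.29% of all genes). It stayed within 1.3-fold for 67 (88.2%, against 29.6% of all genes) and within 1.5-fold for 71 (93.4%, against 63.4%). At 1.8-fold, 75 of 76 intervals lay inside (98.7%, against 83.5% of all genes), and only that of Cox6b2, from 0.25 to 1.14 on the log2 scale, extended past it. The shares of all genes were not matched for brightness, and the median SE was 0.09 for the subunits and 0.15 for all genes. The intervals take the deposited scaling as given, and centring each array on its median moved the subunit median from 0.03 to 0.11. These subunits also varied little between mice fed the same diet. Their median within-group SD was 0.09 on the log2 scale, against 0.17 for all genes and 0.11 for the 2979 other genes brighter than the 10th percentile of the subunits.

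The promoters of the subunit genes are described for short sequences that some of them share, since the rule used only the names. RefSeq promoters of mouse assembly GRCm38.p6, 250 bases before to 50 after each start, were found for 66 of the 81 genes. They were searched on both strands for GCGCATGC, a core that the factor NRF-1 binds, for CCGGAAG, a core of ETS factors such as GABP (also called NRF-2), and for AAGATGGC, a core of YY1. These factors are known regulators of nuclear genes for mitochondrial proteins. The NRF-1 core was found in 9 promoters (13.6%, against 2.8% of all 27025 promoters and 4.29% of the 14369 promoters of genes named on the array). The ETS core was found in 16 (24.2%, against 9.12% and 13.8%) and the YY1 core in 8 (12.1%, against 2.88% and 3.71%). The median GC content was 58.5% in the subunit promoters, 52.7% in all promoters and 58.7% in those of array genes.

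Both the NRF-1 and the ETS core were found in 5 promoters, those of Atp5k, Atp5l, Cox6a1, Sdhb and Uqcr11. The promoter of Cox6a1, the subunit of complex IV with the highest mean signal, at chr5:115348909-115349208 on the minus strand, and that of Uqcr11, the subunit of complex III with the highest log2 difference, at chr10:80406772-80407071 on the minus strand, are given as examples. The promoters of Ndufv1 (chr19:4012706-4013005, minus strand) and Cox6b2 (chr7:4753045-4753344, minus strand), the members with the highest differences of complexes I and IV, held none of the 3 cores. All 4 are written 5′ to 3′ along the gene's strand, with matches to the cores in capitals. In Cox6a1 the first capitals are a forward and a reverse match to the NRF-1 core that overlap, and the second is the ETS core read on the other strand. In Uqcr11 the first is the ETS core and the second the NRF-1 core read on the other strand.
Cox6a1: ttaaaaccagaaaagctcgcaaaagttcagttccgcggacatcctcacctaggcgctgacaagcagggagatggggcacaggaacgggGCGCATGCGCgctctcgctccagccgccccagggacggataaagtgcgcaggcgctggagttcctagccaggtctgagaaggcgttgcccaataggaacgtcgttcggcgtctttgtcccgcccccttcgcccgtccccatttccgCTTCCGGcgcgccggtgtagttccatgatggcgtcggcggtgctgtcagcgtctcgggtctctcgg
Uqcr11: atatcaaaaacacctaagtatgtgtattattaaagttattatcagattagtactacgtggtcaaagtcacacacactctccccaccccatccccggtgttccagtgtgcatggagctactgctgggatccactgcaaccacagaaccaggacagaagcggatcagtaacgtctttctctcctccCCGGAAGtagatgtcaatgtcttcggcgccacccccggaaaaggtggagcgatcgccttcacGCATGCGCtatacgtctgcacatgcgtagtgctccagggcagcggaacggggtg
Ndufv1: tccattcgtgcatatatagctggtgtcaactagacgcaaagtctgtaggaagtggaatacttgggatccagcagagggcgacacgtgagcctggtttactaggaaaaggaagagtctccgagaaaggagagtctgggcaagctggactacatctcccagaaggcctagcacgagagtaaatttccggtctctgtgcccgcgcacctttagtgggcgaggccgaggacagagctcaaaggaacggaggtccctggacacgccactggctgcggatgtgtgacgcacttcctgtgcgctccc
Cox6b2: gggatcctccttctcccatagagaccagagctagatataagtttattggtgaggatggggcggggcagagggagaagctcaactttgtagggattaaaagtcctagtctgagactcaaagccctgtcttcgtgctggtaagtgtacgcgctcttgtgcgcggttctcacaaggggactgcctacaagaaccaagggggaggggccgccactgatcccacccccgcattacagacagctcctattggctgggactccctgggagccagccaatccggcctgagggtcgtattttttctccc

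The differences between diets were also taken by these letters. The median log2 difference was 0.06 for tested subunits with an NRF-1 core in the promoter and 0.02 for those without. It was 0.06 with and 0.02 without an ETS core, and 0.00 with and 0.03 without a YY1 core. These medians were not tested, and a match describes the letters only.

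Complex I takes electrons from NADH. Its 34 tested subunits had a median log2 difference of 0.03, with 20 above and 14 below 0. The 6 core subunits, which are shared with the bacterial enzyme, had a median of 0.06, and the 28 accessory subunits a median of 0.02. Ndufv1, the core subunit that binds NADH, gave signals of 2288.5, 2720.6 and 2700.3 in the controls against 3250, 3796.8 and 3143.5 in the garlic-fed mice. All 3 garlic-fed spleens lay above the controls, and control mouse 1 was the lowest of its group. The geometric mean was 1.32-fold higher, a log2 difference of 0.40 ± 0.11 (SE), with adjusted p = 0.191. This probe set is of a type whose probes may partly match other transcripts, and the 2 other tested probe sets of Ndufv1 gave differences of 0.10 and 0.08. No match to the cores was found in the promoter of Ndufv1, shown above.

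Ndufa2, an accessory subunit of the NADH-oxidising arm, gave 5131.4, 5103.7 and 4962.9 in the controls against 6281.9, 6764 and 5135 in the garlic-fed mice. Garlic-fed mice 1 and 2 were high, while garlic-fed mouse 3 lay just above the highest control. The log2 difference was 0.25 ± 0.10 (SE; adjusted p = 0.417). Ndufa1, a small membrane subunit with the highest mean signal of complex I, gave 10735.7, 9485.5 and 9993.4 in the controls against 8567.9, 9523.9 and 9015 in the garlic-fed mice. Its groups overlapped, since garlic-fed mouse 2 was above control mouse 2. It had the lowest difference of the complex, -0.16 ± 0.08 (SE; adjusted p = 0.507). Ndufb6, an accessory subunit of the membrane arm, gave 3798.2, 3457.9 and 3375.7 in the controls against 2971.9, 3137.3 and 3446.2 in the garlic-fed mice. The groups overlapped through garlic-fed mouse 3, and the difference was -0.15 ± 0.09 (SE; adjusted p = 0.598).

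The other tested subunits of complex I had differences between -0.11 for Ndufa9 and 0.15 for Ndufb9. Ndufs7, a core iron-sulfur subunit, had a difference of 0.13 by its representative and 0.29 by its second probe set, which had adjusted p = 0.229. Ndufa4l2, a paralog of Ndufa4, had the lowest mean signal of the tested members, at 93.4, 194.2 and 118.2 in the controls against 157.6, 105.5 and 132.9 in the garlic-fed mice. Its values overlapped and its interval was wide, from -0.66 to 0.69. Ndufb4, an accessory subunit, was under the filter on dim probe sets by its only single-gene probe set. That gave 76.2, 52.7 and 32.7 in the controls against 59.6, 42.7 and 26.3 in the garlic-fed mice. The like-named Ndufb4b and Ndufb4c were named only on probe sets of several genes, which the rule left out. Ndufa4 is now counted with complex IV by structure, but it was kept here with its symbol.

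Complex II, succinate dehydrogenase, also works in the citric acid cycle, and all 4 of its subunits were measured. The median log2 difference was 0.01, with 2 subunits above and 2 below 0. Sdha, the flavoprotein that oxidises succinate, gave 5540.1, 5835.6 and 5691.8 in the controls against 5365.4, 5295.5 and 5543.1 in the garlic-fed mice. Only garlic-fed mouse 3 reached into the control range, and only just, and the difference was -0.07 ± 0.07 (SE; adjusted p = 0.777). Sdhb, the iron-sulfur subunit, gave 4632.4, 5468.7 and 5047.6 against 4880.2, 4938.4 and 5205.7. All of its garlic-fed values lay inside the control range, with a difference of -0.01 ± 0.09 (SE; adjusted p = 0.983).

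Sdhc and Sdhd form the membrane anchor of complex II. Sdhc gave 2082.8, 2236.7 and 2036 in the controls against 2023.8, 2167.9 and 2336 in the garlic-fed mice. The groups overlapped throughout, with a difference of 0.04 ± 0.10 (SE; adjusted p = 0.929). Sdhd gave 1953.4, 2014.6 and 1826.1 in the controls against 2051.3, 2168.9 and 1969.8 in the garlic-fed mice. Garlic-fed mice 1 and 2 were above all controls and garlic-fed mouse 3 was not, and the difference was 0.10 ± 0.09 (SE; adjusted p = 0.774). When the probe sets of a gene were averaged, the signs of Sdha, Sdhc and Sdhd turned, with values of 0.02, -0.01 and -0.05.

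Complex III, cytochrome bc1, had a median log2 difference of 0.07 over the 8 subunits that the naming rule takes, of which 6 were above and 2 below 0. Uqcrfs1, the Rieske iron-sulfur protein, gave 3051.1, 3589.6 and 3416.3 in the controls against 3668.2, 3810.9 and 3847.8 in the garlic-fed mice. Every garlic-fed spleen was above every control, and the difference was 0.17 ± 0.09 (SE; adjusted p = 0.517). Uqcr11, a small accessory subunit whose promoter is shown above, gave 1828.1, 2240.5 and 2212.5 in the controls against 2168.4, 2490 and 2423.2 in the garlic-fed mice. Control mouse 1 was low, garlic-fed mouse 1 lay within the control range, and the difference was 0.18 ± 0.11 (SE; adjusted p = 0.615).

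Uqcrb, an accessory subunit, had the highest mean signal of complex III, with 18444, 18965 and 19495.8 in the controls against 17823.4, 19354.9 and 18904.2 in the garlic-fed mice. Its groups overlapped, with a difference of -0.02 ± 0.07 (SE; adjusted p = 0.941). Uqcrq, another accessory subunit, gave 2785.6, 3025.9 and 2948.3 in the controls against 2722.5, 2908.4 and 3015.8 in the garlic-fed mice. These overlapped as well, and the difference was -0.02 ± 0.09 (SE; adjusted p = 0.961). The remaining subunits, among them the core proteins Uqcrc1 and Uqcrc2, had differences between 0.01 and 0.15.

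**Figure D2:**
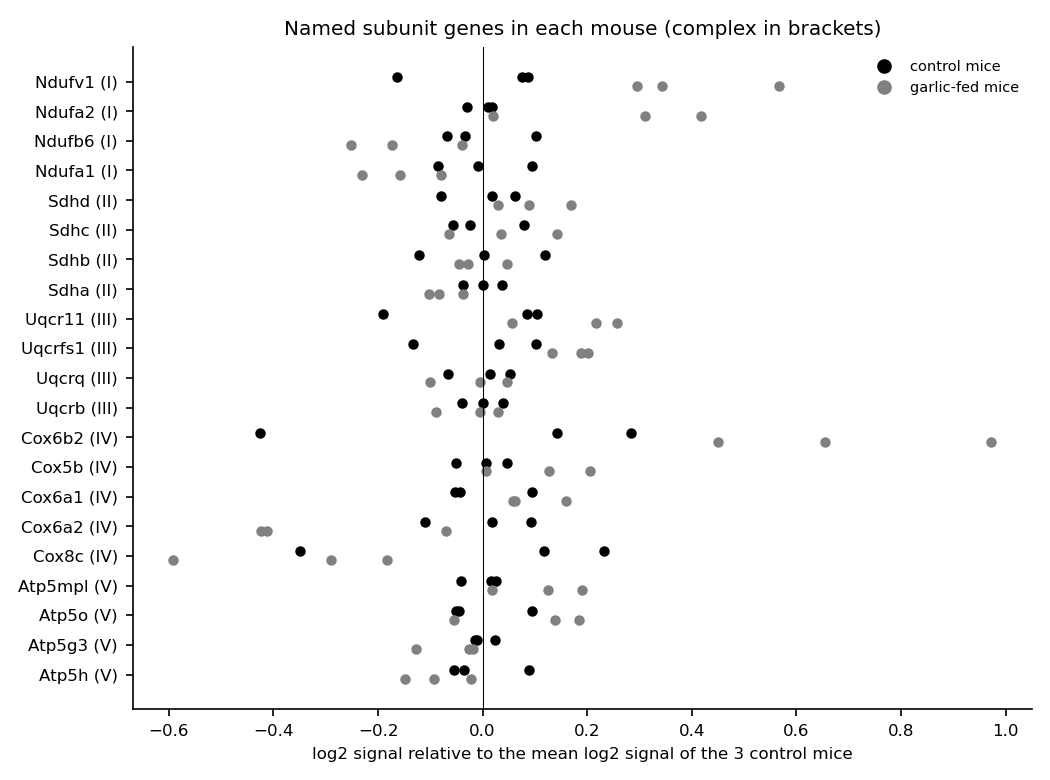
Log2 signal of the 21 subunits described in full, as the distance on the horizontal axis from the average of the 3 controls, with control mice in black and garlic-fed mice in grey, each point 1 mouse, ordered by complex. The groups lie apart for Ndufv1, Ndufa2, Uqcrfs1, Cox6b2 and Atp5g3, by little in Ndufa2 and Atp5g3, and overlap for the others.

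Complex IV, cytochrome c oxidase, had a median log2 difference of 0.08 over 13 tested genes, of which 10 were above and 3 below 0. Cox6b2, the testis isoform of subunit 6b, gave 382.9, 626.3 and 567.4 in the controls against 703, 809.8 and 1009.1 in the garlic-fed mice. All garlic-fed spleens were above all controls, and control mouse 1 was again the lowest. The geometric mean was 1.62-fold higher, a log2 difference of 0.69 ± 0.20 (SE), with adjusted p = 0.218, from the single probe set of the gene. Its promoter, shown above, held none of the cores searched.

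Cox6a1, the common isoform of subunit 6a, gave 16857, 16970.1 and 18660.9 in the controls against 18206.8, 19530.6 and 18253.2 in the garlic-fed mice. Control mouse 3 was above garlic-fed mice 1 and 3, and the difference was 0.09 ± 0.07 (SE; adjusted p = 0.688). Cox5b, a common subunit on the matrix side, gave 11127.2, 11579.1 and 11904 in the controls against 11580, 13292.5 and 12599.5 in the garlic-fed mice. Garlic-fed mouse 1 lay within the controls and the other 2 above them, with a difference of 0.11 ± 0.08 (SE; adjusted p = 0.642). This probe set, like that of Ndufv1, is of a type whose probes may partly match other transcripts. It gave the highest difference of the 5 tested probe sets of Cox5b, which ranged from -0.07 to 0.11. The 10 genes of complex IV expressed in most tissues had a median of 0.09, with differences from -0.05 for Cox7c to 0.11 for Cox5b. This group includes Cox7a2l, a factor that joins complexes III and IV in supercomplexes.

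The isoforms of complex IV known from particular tissues were dim or scattered. Cox6a2, the heart and muscle isoform, gave 201, 231.1 and 219.5 in the controls against 161.7, 206.6 and 162.9 in the garlic-fed mice. Garlic-fed mice 1 and 3 were low and garlic-fed mouse 2 lay within the controls, with a difference of -0.30 ± 0.19 (SE; adjusted p = 0.612). Cox8c, known from testis, gave 411.6, 379.9 and 274.8 in the controls against 308.5, 232.5 and 286.6 in the garlic-fed mice. Control mouse 3 lay within the garlic-fed group, and the difference was -0.35 ± 0.19 (SE; adjusted p = 0.556). Together with Cox6b2 these 3 had a median of -0.30, which turned to 0.17 when a stricter filter at the 60th percentile of mean signal left out Cox6a2.

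Under the filter were 4 further isoforms of complex IV, which were not tested. Cox4i2, the lung isoform of subunit 4, gave 65.9, 54.4 and 55.9 in the controls against 73.7, 48.8 and 88.9 in the garlic-fed mice. Cox7a1, of heart and muscle, gave 20, 57.7 and 46.5 against 24.3, 40.3 and 19.2. These values overlapped between the diets. Cox7b2 gave 0.9, 1.1 and 4.7 against 4.5, 1.6 and 1.5, and Cox8b, of muscle and brown fat, gave 18, 14.5 and 13 against 8.1, 12.4 and 5.8. The values of these last 2 genes lay under the floor of 23.5, so no order was read from them. Of the 12 muscle and brown fat markers named on the array, 1 passed the filter, and their summed signal was 468 to 615 in controls and 348 to 712 in garlic-fed mice, with Ckm, Acta1 and Ucp1 under the filter.

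Complex V, the ATP synthase, had a median log2 difference of 0.01 over 17 subunits, of which 11 were above and 6 below 0. The catalytic F1 part, formed by Atp5a1, Atp5b, Atp5c1, Atp5d and Atp5e, had 5 of 5 values above 0 but a median of only 0.07, which was -0.0049 without control mouse 1 and 0.01 without the most pancreatic array of each group. The other 12 subunits, of the membrane part and the stalks, had a median of -0.01. Atp5h, the d subunit of the peripheral stalk, had the highest mean signal and the lowest difference of the complex. It gave 13232.9, 13412.1 and 14619.2 in the controls against 12886.9, 12403.6 and 13534.6 in the garlic-fed mice, which overlapped through garlic-fed mouse 3. Its difference was -0.09 ± 0.07 (SE; adjusted p = 0.723). The other tested probe set of Atp5h, also bright (mean log2 signal 13.21), gave a difference of the other sign, 0.11.

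Atp5g3, a gene for the c subunit of the rotor ring, gave 13023.8, 12672.3 and 12716.4 in the controls against 11714.2, 12570.4 and 12637.5 in the garlic-fed mice. Each garlic-fed spleen was below each control, by little in garlic-fed mice 2 and 3, with a difference of -0.06 ± 0.07 (SE; adjusted p = 0.819). Atp5mpl, a small proteolipid of the membrane part, gave 5195.5, 4957 and 5162.7 in the controls against 5169.8, 5563.8 and 5823.2 in the garlic-fed mice. Garlic-fed mouse 1 lay within the controls, and the difference was 0.11 ± 0.08 (SE; adjusted p = 0.669). Atp5o, which links the peripheral stalk to the F1 part, gave 3867.6, 4260.8 and 3849.7 in the controls against 3842.1, 4530.4 and 4389.4 in the garlic-fed mice. The groups overlapped, with a difference of 0.09 ± 0.09 (SE; adjusted p = 0.79). Atp5g2, another c subunit gene, had a difference of -0.05 by its representative and 0.35 by its other tested probe set, which was dim (mean log2 signal 6.82).

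The choice of probe set mattered for the sign of small differences. Of the 81 genes, 48 had several probe sets, and 44 had several that were tested. The differences had both signs in 21 of these 44. Over all 147 tested probe sets of the subunits, 4 had a higher and 0 a lower signal at an unadjusted p under 0.05, against 5.58% and 5.44% of all probe sets. In limma 0 passed after adjustment, against 0.226% of all probe sets higher and 0.0111% lower. For Cox8a, a common subunit of complex IV, the probe sets ranged from -0.40 to 0.10. The value of -0.40 came from a dim probe set (mean log2 signal 6.69), and the brighter ones gave 0.10 and 0.02.

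Subunits of different complexes shared the same high and low arrays. Control mouse 1 had the lowest value of its group in 52 of the 76 tested subunits (68.4%, against 37.5% of all genes), and control mouse 2 the highest in 37 (48.7%). Control mouse 1 also had the highest summed signal of pancreatic markers, 153873. Garlic-fed mouse 1 was the lowest of its group in 40 (52.6%, against 28.7% of all genes) and garlic-fed mouse 2 the highest in 42 (55.3%, against 29.5%). In the garlic-fed group the pancreatic sum was instead highest in mouse 2 (39010), against 2446 in mouse 1 and 2655 in mouse 3. The part of pancreatic tissue in these orders was not tested. Relative to the control mean, the median subunit stood at -0.06, 0.03 and 0.02 in the controls against at 0.00, 0.05 and 0.03 in the garlic-fed mice, so the groups overlapped. For complex III these values were -0.06, 0.06 and 0.02 against 0.04, 0.08 and 0.15, and for complex IV -0.05, 0.00 and 0.04 against 0.04, 0.15 and 0.06. In both, the garlic-fed values lay higher but overlapped the controls. The probe sets of the 81 genes held 1.22%, 1.3% and 1.3% of the total signal of the control arrays and 1.27%, 1.33% and 1.3% of that of the garlic-fed arrays.

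**Figure D3:**
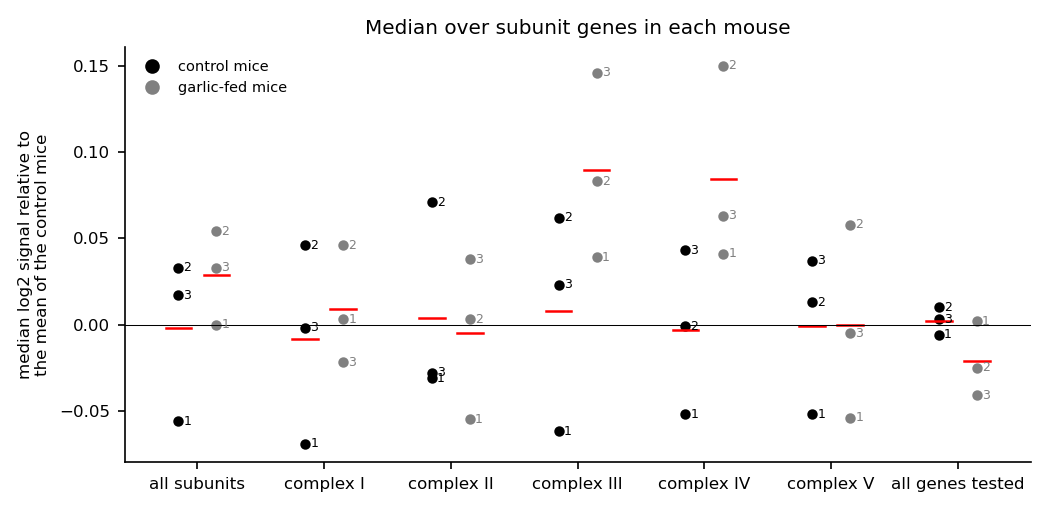
Median over the tested subunits of each complex, and over all subunits, of the log2 deviation from the mean of the 3 control spleens, for each numbered control (black) and garlic-fed (grey) mouse, with the group mean as a red bar and all tested genes at the right. Control mouse 1 is the lowest of the controls in every complex, and the diets overlap in each complex.

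Other mitochondrial genes were examined as lists around the subunits. No gene of these lists passed at an adjusted p under 0.05 in limma. Of the 22 tested assembly factors of complex IV, at an unadjusted p under 0.05, 1 was higher and 3 were lower, and their median log2 difference was -0.08. The shares of all genes at this threshold, against which the counts of each list are to be read, were 6.89% higher and 6.24% lower. Their values ran from -0.55 for Cox15 (adjusted p = 0.47), which makes heme A, to 0.37 for Cmc2 (adjusted p = 0.28). The 4 assembly factors of complex V had a median of -0.25, with 0 higher and 2 lower before adjustment. The 19 genes listed for complex I assembly, with 0 higher and 0 lower, had a median of -0.10. They include Ndufab1 (0.13; adjusted p = 0.644), a complex I subunit and acyl carrier protein that the naming rule does not take, and every garlic-fed spleen was above every control for it. The 4 assembly factors of complex II, with 0 higher and 1 lower, had a median of -0.08. The 6 further genes of complex III had 0 in either direction and a median of -0.08. Their values ran from -0.17 for Uqcc1 to 0.09 for Cyc1 (adjusted p = 0.807). Cyc1 encodes cytochrome c1, a complex III subunit that the naming rule does not take.

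The 14 genes for cytochrome c and coenzyme Q had a median of -0.16, with 0 higher and 2 lower before adjustment, and the lowest was Coq8a (-0.48; adjusted p = 0.208), a kinase-like protein of coenzyme Q synthesis. The 6 carriers and porins had a median of -0.05, with 0 higher and 1 lower, Slc25a4 (-0.26; adjusted p = 0.241), an ADP/ATP carrier. The 20 regulators of mitochondrial transcription and biogenesis had a median of -0.03, with 0 higher and 1 lower, from -0.32 for Tfb2m to 0.43 for Ppargc1a. Among these regulators, Nrf1, which encodes NRF-1, had a difference of 0.06 (adjusted p = 0.922), and Gabpa, a subunit of GABP, one of -0.17 (adjusted p = 0.568). These 2 genes were chosen after their values were seen. The 16 enzymes of the citric acid cycle had 0 in either direction and a median of 0.01. The 76 mitochondrial ribosomal proteins had 1 higher and 0 lower and a median of -0.06. When arrays were centred on their medians, the median of all genes moved to 0.05 and that of the subunits to 0.11.

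**Figure D4:**
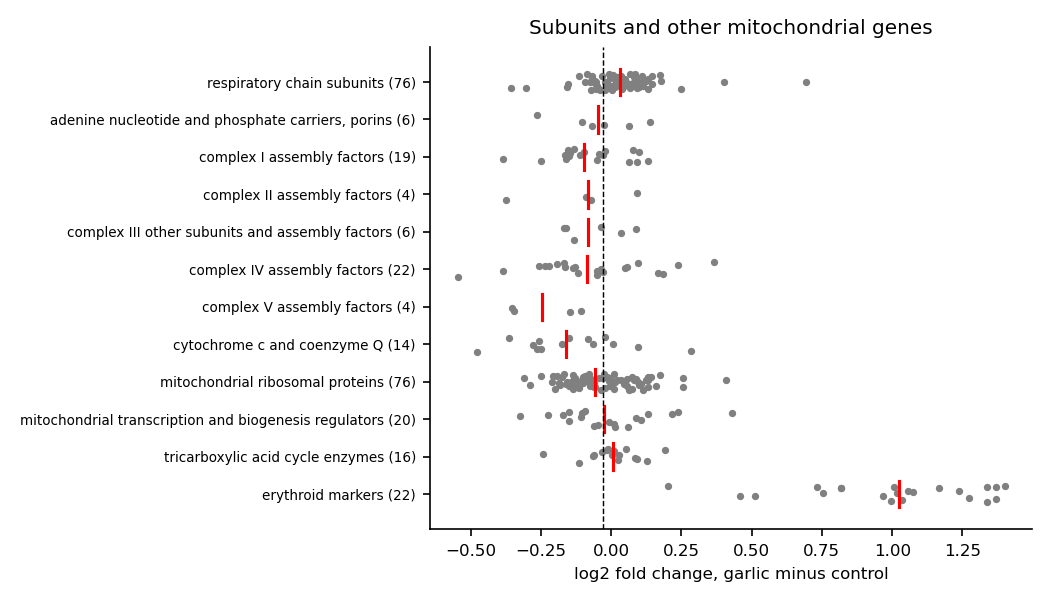
Log2 difference, garlic-fed minus control, of each tested gene (grey points, spread vertically for sight) in the subunits, the other mitochondrial lists and the erythroid markers, with the median of each list as a red bar, the number of genes in brackets and the median of all genes as a dashed line. The subunits lie around a median of 0.03, and the erythroid markers around 1.03.

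The spleens differed in other cells and tissues, whose part in the subunit values was not tested. Erythroid precursor markers had a summed signal of 65036 to 88095 in the controls against 113082 to 158538 in the garlic-fed group, with 7 of 22 tested genes higher at an adjusted p under 0.05 and a median log2 difference of 1.03. Pancreatic markers summed to 153873, 20105 and 71526 in the controls against 2446, 39010 and 2655 in the garlic-fed mice, and 16 of 16 tested genes were lower at an unadjusted p under 0.05 but 0 after adjustment in limma. B cell markers summed to 93200 to 104564 in controls and 89655 to 97634 in garlic-fed mice, and T cell markers to 18010 to 19116 and 16042 to 17992. Red pulp macrophage markers summed to 84173 to 95770 and 89255 to 105926, and fat markers to 12699 to 14045 and 10912 to 23980. Spleen markers were thus present on every array. Without control mouse 1 and garlic-fed mouse 2, the median difference of the subunits was -0.02, and at an unadjusted p under 0.05, 1 subunit was higher and 0 were lower, against 4.08% and 2.38% of all genes. These arrays were also most often the lowest control and the highest garlic-fed array for the subunits. Leaving them out lowers the difference whether or not pancreatic tissue plays a part, so this alternative cannot show that part.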

How the data were processed

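Spleen RNA of 3 control and 3 garlic-fed mice was measured on Affymetrix arrays, 1 per mouse. The authors deposited intensity values, namely linear MAS5 signals of the probe sets. The scaling and the MAS5 version are not given in the sources used here, and the values of every array averaged 500 after trimming 2% at both ends. The 64 control probe sets were left out. Signals were set to a floor of 23.5 (the 20th percentile), put on the log2 scale and filtered at a mean log2 signal of 6.08 (the 40th percentile), which left 27022 of 45037 probe sets. They were compared between diets with limma 3.58.1 in R 4.3.3 (moderated test with a variance trend, two-sided, Benjamini-Hochberg adjustment). The script was tested on simulated data. The number of arrays limits the precision.

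Genes were named through the array annotation by probe sets with 1 gene, and all 81 subunit genes matched RefSeq by identifier. Of 242 names in the lists of markers and other mitochondrial genes, 34 had no named probe set. In each complex, the gene with the highest mean signal and the 2 with the highest and the 2 with the lowest differences were described in full, together with every gene at an unadjusted p under 0.05. Members, lists and motifs were chosen with earlier results of these data known. Mice with the same replicate number did not deviate together (correlations of 0.00, -0.18 and 0.08), so the numbers were not taken to pair them. Alternatives covered scaling, floor, filter, variance model, the methods' test, pairing, probe set choice and leaving out arrays. Figures were drawn with matplotlib 3.10.9.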

Additional observations from a re-analysis of the deposited data

How the results depend on the processing

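No subunit passed an adjusted p under 0.05 in any of the 18 alternatives, and the lowest adjusted p of a subunit ran from 0.0592 (Cox6b2, replicate block) to 0.885 (Cox6b2, without the most pancreatic array of each group, an alternative chosen after seeing the data). In the main setting 61 probe sets of the whole array were higher and 3 lower. These counts were 147 higher with median centring, 6 lower with a floor at the 40th percentile, 4 and 7 with no filter, 0 and 0 with no variance trend and with the methods' test on log2 or linear signals, 2 and 26 without the most pancreatic arrays, and 270 and 25 with the replicate block, in which the mice share only a number. Leaving out 1 array in turn gave 0 to 106 higher and 0 to 34 lower. Subunits higher at an unadjusted p under 0.05 numbered 5 of 76 with median centring, against 1240 of 12262 genes. The methods' test gave 1 on either scale, against 668 genes with log2 and 635 with linear signals. Without the most pancreatic arrays 1 subunit was higher, against 500 genes. With 1 array left out, 2 to 5 subunits were higher and 0 to 2 lower. In those settings 2.63% to 9.21% of subunits and 8.43% to 15.3% of all genes were under this threshold, both directions together.

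Median centring moved the median log2 difference to 0.11 for all subunits, 0.11, 0.092, 0.15, 0.16 and 0.092 for complexes I to V, 0.14 and 0.099 for core and accessory subunits of complex I, 0.17 for common subunits of complex IV, and 0.15 and 0.068 for F1 and other subunits of complex V. It moved assembly factors of complexes I, IV and V to -0.0178, -0.0061 and -0.17, cytochrome c and coenzyme Q to -0.083, ribosomal proteins to 0.0196, regulators to 0.051 and the citric acid cycle to 0.085, and it turned Sdha (0.0031), Sdhb (0.069), Uqcrb (0.0565), Uqcrq (0.059) and Atp5g3 (0.0201). Complex IV assembly factors moved to -0.0506 with the higher floor and -0.049 with the stricter filter, and tissue-restricted subunits of complex IV to 0 with no filter and 0.17 with the stricter one. Without the most pancreatic arrays the medians were -0.0185 for all subunits, -0.044, 0.0209 and -0.0405 for complexes I, IV and V, -0.045 for accessory subunits of complex I, 0.028 and -0.12 for common and tissue-restricted subunits of complex IV, 0.0096 for F1, -0.025 for complex I assembly factors and -0.087 for cytochrome c and coenzyme Q. With all probe sets of a gene averaged they were 0.025 for complex IV, 0.027 for its common subunits and -0.13 for complex V assembly factors, and Sdha (0.022), Sdhc (-0.0115), Sdhd (-0.049) and Atp5h (0.0121) turned. With 1 array left out, the medians ran from -0.0056 to 0.058 for all subunits, -0.0162 to 0.047 for complex I, -0.026 to 0.0635 for II, 0.043 to 0.095 for III, 0.037 to 0.0935 for IV, -0.024 to 0.061 for V, -0.0049 to 0.085 for F1, -0.028 to 0.039 for accessory subunits of complex I, -0.11 to -0.051 for complex IV assembly factors and -0.085 to 0.0205 for regulators, and the differences from -0.0697 to 0.05 for Sdhb, -0.0152 to 0.088 for Sdhc, -0.047 to 0.0125 for Uqcrb and -0.053 to 0.021 for Uqcrq. The causes were not tested.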
